A study of Mus musculus with 6 samples.

Results

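Cycling Lgr5-high cells were selected from mouse small intestinal organoids by their own transcripts. A cell was taken when it held at least 1000 genes and under 20% mitochondrial UMIs, at least 2 UMIs of Lgr5, and at least 5 UMIs of Mki67, Top2a, Ube2c and Birc5 together (a UMI is a tag that marks 1 captured RNA molecule). These thresholds gave 10684 of 87954 cells kept, or 12.1%, over 6 libraries. The libraries contributed 1530 and 1893 cells from WT -EIPA organoids, 1404 and 1693 from WT +EIPA organoids, 2245 from CRISPR -Dox organoids and 1919 from CRISPR +Dox organoids.

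Lgr5 encodes a receptor for R-spondins that strengthens WNT signalling, and it marks the crypt-base columnar stem cells of the intestine. These cells divide rapidly between Paneth cells at the crypt base, renew themselves, and supply transit-amplifying cells, which divide further and then take an absorptive (enterocyte) or secretory (Paneth, goblet, enteroendocrine, tuft) fate. NHE1 is a plasma membrane exchanger that brings sodium into the cell and moves protons out, so that it raises intracellular pH. The comparisons below address how dividing Lgr5-high cells differed when NHE1 was inhibited or its gene targeted.

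All organoids came from adult mouse small intestine, which the study describes as duodenum, and were collected on day 3. The strain of the stock is not given in the sources used here. WT organoids received DMSO (called -EIPA) or EIPA, 5-(N-ethyl-N-isopropyl)-amiloride, an inhibitor of NHE1, with 2 libraries each, which the study describes as biologically independent. CRISPR organoids carried a lentiviral, doxycycline-inducible Cas9-EGFP with a guide to the first exon of the NHE1 gene, were established as clones from puromycin-resistant organoids, and were collected without doxycycline (-Dox) or with it (+Dox), 1 library each. Live cells were sorted from each condition except +Dox, where live GFP+ cells were sorted, so that Dox, gene targeting and the GFP gate cannot be told apart. Kept cells made up 57.0% to 84.4% of the barcodes in a library and held 161670015 to 239368573 UMIs, of which members held 26715461 to 59161433. Cycling Lgr5-high cells were deeper than the average kept cell, with medians of 16582 to 26372 UMIs per cell against 11478 to 17020, and +Dox was the deepest library. Any 2 libraries shared between 33 and 78 of their kept barcodes, at most 0.563% of the smaller library.

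The 4 division genes of the rule act late in the cycle. Mki67 encodes the Ki-67 protein that coats mitotic chromosomes, Top2a untangles sister chromatids, Ube2c is the ubiquitin-conjugating enzyme of the anaphase-promoting complex, and Birc5 (survivin) belongs to the chromosomal passenger complex. In the RefSeq promoter windows (250 bases before to 50 after a gene's start, GRCm38.p6), a CHR element (TTTGAA, a cell cycle homology region, either strand) lay in 35 of the 57 genes of the G2 and mitosis list that had a window, or 61.4%, against 20.2% of all 27025 genes and 15.6% of the S-phase list. A CCAAT box (CCAAT, either strand) lay in 75.4%, 41.1% and 59.4% of the same sets, in 93.3% of the cholesterol list (14 of 15 windows) and in 68.2% of the ATF4 targets. The stretches that hold the matches are shown for 3 of the rule genes, because they are the genes that define these cells as dividing. They are written 5′ to 3′ on the gene's strand, with both motifs in capitals: Mki67 at chr7:135716457-135716582 (minus strand), Top2a at chr11:99024192-99024431 (minus strand) and Ube2c at chr2:164769686-164769920 (plus strand). Birc5 had neither set of letters in its window.
Mki67: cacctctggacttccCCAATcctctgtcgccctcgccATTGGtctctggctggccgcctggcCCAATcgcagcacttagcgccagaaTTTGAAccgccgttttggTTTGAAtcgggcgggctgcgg
Top2a: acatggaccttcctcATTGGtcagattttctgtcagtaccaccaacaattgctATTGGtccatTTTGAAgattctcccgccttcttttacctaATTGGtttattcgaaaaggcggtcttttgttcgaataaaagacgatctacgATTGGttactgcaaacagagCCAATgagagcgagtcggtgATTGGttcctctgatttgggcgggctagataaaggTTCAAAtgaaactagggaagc
Ube2c: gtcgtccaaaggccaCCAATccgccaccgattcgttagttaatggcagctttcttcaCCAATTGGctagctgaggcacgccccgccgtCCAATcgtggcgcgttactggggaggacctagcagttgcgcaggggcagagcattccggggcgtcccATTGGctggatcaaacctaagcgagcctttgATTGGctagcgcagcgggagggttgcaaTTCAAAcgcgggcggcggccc

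The 5 rule genes are described here without a test, since they chose the cells. Members carried a median of 3 Lgr5 UMIs (quartiles 2 and 4, highest 17), and 42.6% of them sat exactly at the threshold of 2. The 4 division genes together gave a median of 29 UMIs (quartiles 13 and 45, highest 211), with 18.1% of members between 5 and 9. In counts summed over members, Lgr5 (chr10:115450311-115587780 in GRCm38, GENCODE M21) lay between 126 and 167 CPM (counts scaled to the library total of the members), Mki67 between 268 and 389, Top2a between 356 and 495, Ube2c between 350 and 446, and Birc5 between 230 and 275 over the 6 libraries. At the edge of the rule in the WT -EIPA library of experiment 1, members at exactly 2 Lgr5 UMIs had Olfm4 at 1762 CPM, and cycling cells just outside at 1 UMI had 1192 CPM. Members with a division sum of 5 had Cdk1 at 44.9 CPM, and Lgr5-high cells just outside at 4 had 31.7 CPM. The order was the same for Olfm4 in every library, but Cdk1 was nearly level in WT +EIPA 2 (51.8 and 49.95 CPM) and lower in members in CRISPR -Dox (35.7 and 39.2 CPM).

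Of stem cell markers that the rule did not use, Olfm4, a secreted glycoprotein of crypt-base stem cells, was at 2150 to 3422 CPM in members and 580 to 998 CPM in cycling cells with no Lgr5 UMI. The matricellular gene Smoc2 was at 146 to 199 CPM in members and 78.4 to 144 CPM in those cells. The 5 epithelial markers summed to 2878 to 3744 CPM and the 6 stromal and immune markers to 0.237 to 6.81 CPM, with the collagen gene Col3a1 at 0.0 CPM in every library. Genes of other epithelial types were also present: Lyz1, the Paneth cell lysozyme, had a UMI in 54.1% to 99.8% of members by library, Muc2, the goblet mucin, in 16.3% to 54.6%, and Alpi, an enterocyte phosphatase, in 9.61% to 18.03%. Of members, 17.97% to 26.7% were among the 10% of cells with the highest doublet score in their library, against 12.7% to 16.8% of cycling Lgr5-zero cells. The part of doublets and free RNA in these values was not tested. In cells with 2 or more Alpi UMIs and no division UMIs, which as enterocytes should lack the receptor, 2 or more Lgr5 UMIs were found in 0.844% to 1.87% of cells, against 16.2% to 25.1% of all kept cells, at median depths of 11343 to 16965 and 11478 to 17020 UMIs.

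Set beside the other classes, members combined the transcripts of both. This is a description, because the classes were cut on genes of the same cells. Low-cycling Lgr5-high cells (2 or more Lgr5 UMIs and none of the 4 division genes, 1530 cells) and cycling Lgr5-zero cells (no Lgr5 UMI and at least 5 division UMIs, 17057 cells) served as comparators, and each ratio is the median over the 6 libraries of the within-library log2 CPM ratio. Against cycling Lgr5-zero cells, 29 of 30 crypt-base stem cell genes were higher in members, with a median log2 ratio of 0.80. Leaving out the rule genes, mitochondrial genes and unnamed gene models, Olfm4 had the highest median ratio among genes with at least 50 CPM in the higher class of every library (log2 ratio 1.81). Axin2, a feedback inhibitor and target of WNT signalling, stood at 110.6 to 120.5 CPM against 50.3 to 55.2 CPM, with no overlap between classes. Ascl2, a transcription factor of stem cell identity, had a log2 ratio of 1.23, Mex3a 0.98, Cdk6 0.96, Cdca7 0.83, Sox9 0.81 and Slc12a2 0.79. Paneth genes were also higher in members: the defensin Defa30, which has close copies, had a log2 ratio of 0.84, Lyz1 0.64 (but lower in members in the +Dox library), and the 8 Paneth markers summed to more in members in every library, such as 3466 against 2218 CPM in WT -EIPA 1 and 14560 against 14263 CPM with Dox. The part of free RNA or doublets in this was not tested. Lower in members were Dmbt1 (log2 ratio -1.23), the calcium-binding S100a6 (-0.99), the keratin Krt19 (-0.81), Anxa2 (-0.81) and Prap1 (-0.76). The G2 and mitosis genes hardly separated these 2 dividing classes (median log2 ratio 0.10, with 50 of 68 genes higher in members). Cdk1 had a ratio of -0.01 and Ccnb1, the mitotic cyclin, -0.08.

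Against low-cycling Lgr5-high cells, the same stem cell genes were mostly lower in members (median log2 ratio -0.25, with 6 of 30 genes higher), and their summed level was lower in every library. Low-cycling cells were shallower, with medians of 8880 to 12657 UMIs against 16582 to 26372 in members, under the same threshold of 2 Lgr5 UMIs. Lgr5 itself, described only, had a log2 ratio of -0.90. The part of depth in these ratios was not tested. Olfm4 had a log2 ratio of -0.74, Sox9 -0.65, Smoc2 -0.23, Axin2 -0.05, Ascl2 0.14 and Ephb2 0.28. All 68 G2 and mitosis genes were higher in members, with Tpx2, which targets the spindle kinase Aurora A, at 83.6 to 98.6 CPM against 1.21 to 5.04 CPM (log2 ratio 4.90), followed by Nusap1 (4.42), Hmmr (4.29), Cenpf (4.27) and Prc1 (4.16). Pcna, the replication clamp, differed less, with a log2 ratio of 0.93. The G1 cyclins differed little: Ccnd1 had a ratio of 0.02 and Ccnd2 of 0.12. Paneth and goblet genes were among the lowest ratios, with Defa24 at -2.26, Lyz1 at -1.94 and the goblet gene Spink4 at -1.90 (alpha-defensins are near-identical copies, so single members are uncertain). Paneth markers summed to 18507 to 59649 CPM in low-cycling cells and 3466 to 14560 CPM in members, and goblet markers to 5215 to 18083 CPM and 2002 to 4754 CPM.

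**Figure D1:**
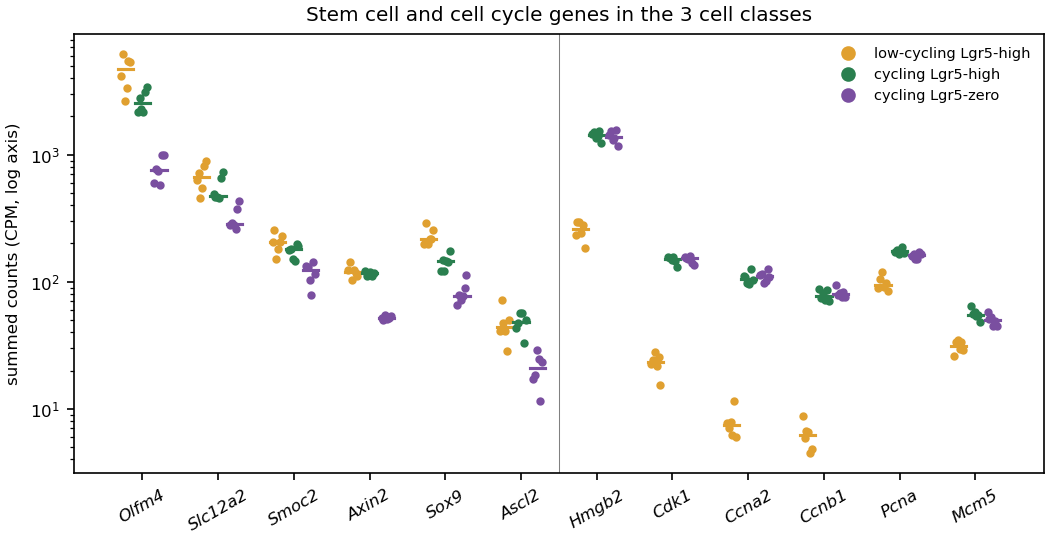
Summed counts (CPM, log axis) of 6 stem cell genes (left) and 6 cell cycle genes (right) in 3 cell classes. Each point is 1 of 6 libraries and each bar their median. Olfm4 and Axin2 in cycling Lgr5-high cells lie above cycling Lgr5-zero cells in every library, while Cdk1, Ccna2 and Ccnb1 lie beside them and above low-cycling Lgr5-high cells.

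With all UMIs, the share of cycling Lgr5-high cells did not move one way with EIPA, and with cells thinned to equal depth it was lower within both experiments. Kept cells had median depths of 11948 and 11858 UMIs in the controls and 11478 and 14467 UMIs after EIPA. Of kept cells, members made up 12.1% and 10.4% in the controls, against 10.6% and 11.9% after EIPA, so the groups overlapped. Dividing +EIPA by -EIPA gave 0.877 for the libraries numbered 1 and 1.14 for those numbered 2 (mean 1.01 ± 0.188, SD, n = 2), and a permutation test of 2 against 2 libraries cannot fall below p = 0.333. Thinned to 8000 UMIs per cell, which left out 1426 to 5208 shallower cells per library, members made up 5.40% and 4.28% of the controls and 5.04% and 3.72% after EIPA, and both ratios were then below 1 (0.934 and 0.870). After thinning, Lgr5-high cells were 11.4% and 10.9% of kept cells without EIPA and 9.60% and 9.34% with it. Cells with at least 5 division UMIs were then 41.0% and 41.4% without EIPA and 37.4% and 34.3% with it. Among Lgr5-high cells with all UMIs, 64.1% and 55.5% were members without EIPA and 65.8% and 62.4% with EIPA. With Dox, the share was 15.9% (exact binomial 95% interval 15.2% to 16.5%, counting error only) against 12.8% (12.3% to 13.3%), and after thinning it was 4.19% against 5.49%, the opposite order. Median depths of members were 26372 UMIs with Dox and 17486 without.

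**Figure D2:**
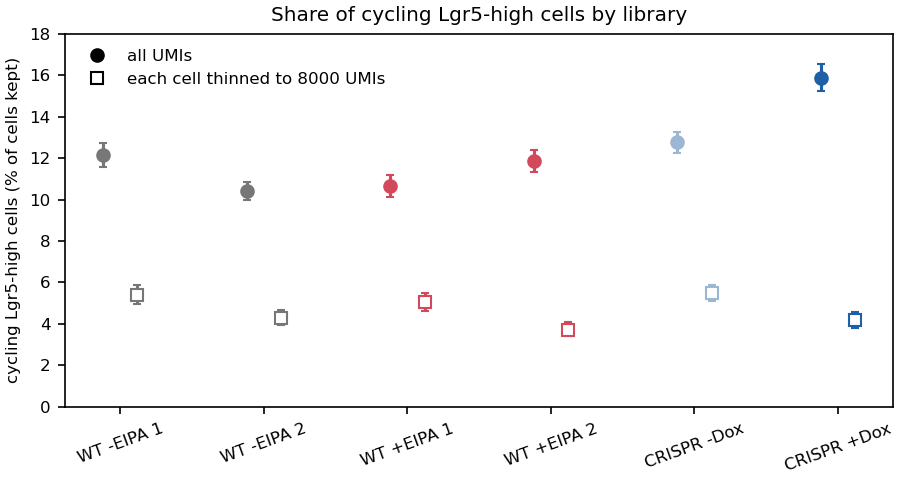
Cycling Lgr5-high cells as a percentage of kept cells in each library, with all UMIs (filled circles) and with each cell thinned to 8000 UMIs (open squares). Bars are exact binomial 95% intervals. The +Dox library is the highest at 15.9% before thinning and falls below -Dox after it.

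With EIPA, Guca2b, Apoc2 and Sprr1a rose in the dividing Lgr5-high cells. Most enterocyte, regenerative and amino acid response genes had higher values and most immediate early and cholesterol synthesis genes lower ones, but few were called by edgeR unless the experiment was a term in the fit, while DESeq2 without that term called 15 of 28 enterocyte and 10 of 24 immediate early genes. Stem cell and cell cycle lists had medians near 0 in these cells, which were selected on Lgr5 and division genes. In summed counts per library (2 against 2, edgeR quasi-likelihood test), 3 of 13072 genes tested were called higher at an adjusted p under 0.05 (0.0229%) and none lower (0.0%). At an unadjusted p under 0.05, 383 were higher and 207 lower, and DESeq2 called 77 and 23. The study's source data list -EIPA and +EIPA samples of the same number together as experiments 1 and 2, taken here to be the libraries numbered 1 and 2. Every value with the block rests on that pairing. With the experiment as a replicate block, 419 genes were called higher (3.21%) and 203 lower (1.55%), with 1 residual degree of freedom among libraries. Without regard to a test, 9.49% of genes were higher and 24.8% lower in CPM in both +EIPA libraries than in both -EIPA libraries. These CPM were scaled by library size, and without TMM the median log2 fold change over the genes tested was -0.06. With TMM, as in the fits, it was -0.00, with 6523 genes above 0 and 6549 below.

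The 3 genes called were Guca2b, Apoc2 and Sprr1a. Guca2b (uroguanylin, chr4:119656607-119658954, a peptide ligand of the intestinal guanylate cyclase receptor) stood at 51.6 and 52.0 CPM in the controls, then 151 and 152 CPM after EIPA. It rose 3.04-fold (log2 fold change 1.61 ± 0.08, SE, adjusted p = 0.0343). Apoc2 (chr7:19671579-19677941), a lipoprotein lipase cofactor, rose from 20.4 and 16.3 to 70.9 and 71.7 CPM (log2 fold change 2.02 ± 0.12, adjusted p = 0.0343). Sprr1a (chr3:92483952-92485895), a cornified envelope protein induced in injured epithelium, rose from 1.58 and 1.27 to 12.7 and 16.01 CPM (log2 fold change 3.40 ± 0.20, adjusted p = 0.0343). For each, both treated libraries lay above both controls, with no overlap. These calls were close to the threshold: none of the 3 was called when members needed 3 or more Lgr5 UMIs, 1 was when the highest doublet scores were removed, 1 was with cells thinned to 8000 UMIs, and 1 was without the -EIPA library of experiment 2.

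The next genes by p did not pass. Apoa1, the main HDL apolipoprotein, was at 132 and 107 CPM and then 456 and 373 CPM (log2 fold change 1.85 ± 0.14, adjusted p = 0.0584, or 3.6e-13 with the replicate block). Cyp3a13, Gda, Gsta1, Mme, Guca2a, Reg3b and Reg3a had log2 fold changes between 1.03 and 2.36 and adjusted p between 0.0584 and 0.139. On the lower side, Hbegf, which encodes a growth factor that binds the EGF receptor, was at 91.4 and 97.4 CPM and then 37.4 and 31.9 CPM (log2 fold change -1.40 ± 0.10, adjusted p = 0.0584). Klf2, Fam20c, Trib1, Bmp3 and Ccn1 had log2 fold changes between -1.38 and -0.67. With the replicate block, all 24 genes chosen for their change were called in the same direction, in the same libraries that they were chosen from. Gsta1 and the Reg3 genes have close copies, and the counting may have divided reads among them.

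**Figure D3:**
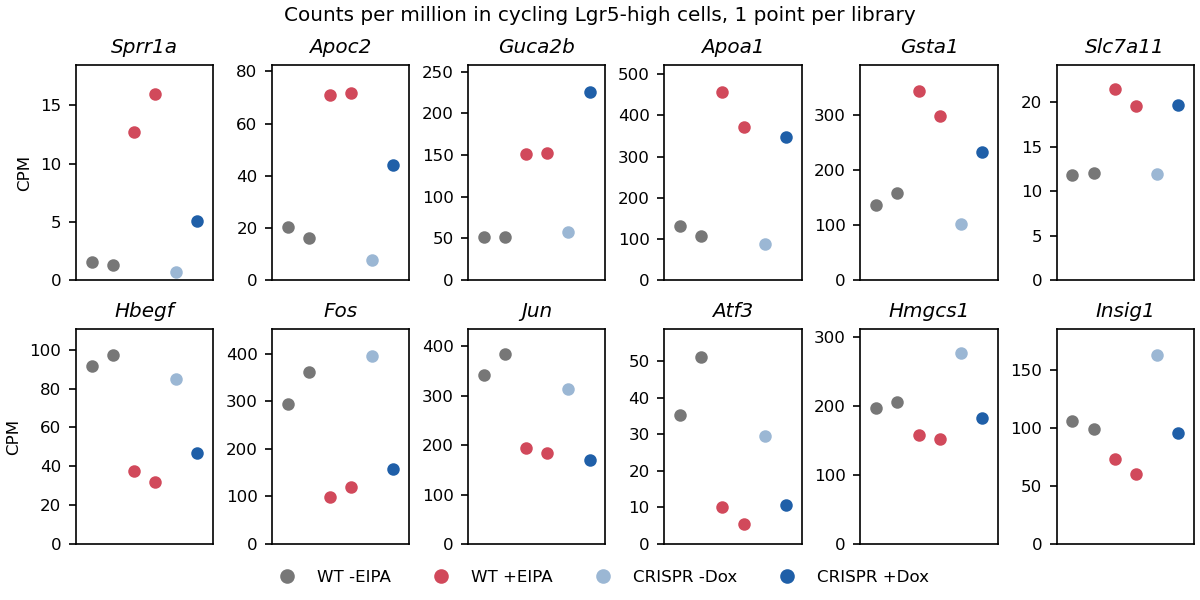
CPM in cycling Lgr5-high cells for 12 genes, each point 1 library, grouped as WT -EIPA, WT +EIPA, CRISPR -Dox and CRISPR +Dox (axes start at 0). The top row lies higher in both +EIPA libraries and in +Dox than in their controls, and the bottom row lies lower.

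Enterocyte genes had positive fold changes throughout. All 28 of the list were above 0 with a median log2 fold change of 0.84 (-0.00 over all 13072 genes). Of them, 2 were called (Guca2b and Apoc2), 24 with the replicate block and 15 by DESeq2, and 20 had no overlap between groups. Fabp1, which carries fatty acids in the enterocyte cytoplasm, was the most abundant, at 795 and 761 CPM and then 1551 and 1073 CPM (log2 fold change 0.80 ± 0.17, adjusted p = 0.477). The defining enterocyte phosphatase Alpi was low, at 7.37 and 8.31 CPM and then 15.9 and 13.1 CPM. Enterocyte markers moved the same way in all kept cells: 7 markers summed to 6268 and 3095 CPM in the controls, then 11184 and 9503 CPM, against 1517 and 1243, then 2941 and 2089 CPM, in members. Paneth and goblet markers were also higher within both experiments: in members, 8 Paneth markers summed to 3466 and 7562 CPM, then 6383 and 13238 CPM, and 7 goblet markers to 2002 and 3112 CPM, then 3113 and 4754 CPM. In all kept cells, the Paneth sum was 6629 and 11533 CPM, then 9196 and 22695 CPM. With the highest doublet scores removed, the enterocyte list had a median log2 fold change of 0.67, and with cells thinned it was 0.59. Both were above 0 and below the main value of 0.84. How much of the members' values came from free RNA or doublets was not tested.

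Immediate early genes, which encode transcription factors and feedback inhibitors that respond quickly to growth factors and stress, had mostly lower values with EIPA. Of 24 members of the list, 20 had negative fold changes (median log2 -0.48), none was called, 17 fell with the replicate block and 10 by DESeq2. In 20 both +EIPA libraries lay below both controls, and in 1 they lay above. Fos, a subunit of AP-1, was at 295 and 360 CPM in the controls, then 99.2 and 119 CPM after EIPA (log2 fold change -1.53 ± 0.16, adjusted p = 0.139). Jun was at 342 and 385 CPM and then 194 and 183 CPM. Atf3 was at 35.4 and 51.2 CPM and then 10.1 and 5.33 CPM, and Fosb at 37.0 and 24.6 CPM and then 7.15 and 3.84 CPM. Egr1 (128 and 141 CPM, then 83.5 and 79.6 CPM) and the MAP kinase phosphatase Dusp1 (15.7 and 17.9 CPM, then 7.30 and 5.14 CPM) were lower in the same libraries. In these genes no +EIPA library reached a -EIPA library.

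Cholesterol synthesis and uptake genes, controlled as a group by the SREBP2 transcription factor, had smaller differences. All 23 had negative fold changes (median log2 -0.31). None was called, 16 had an unadjusted p under 0.05, 18 fell with the replicate block, and DESeq2 called 1. Fdps, which makes farnesyl diphosphate, was at 541 and 484 CPM and then 405 and 406 CPM (log2 fold change -0.28 ± 0.09, adjusted p = 0.991, or 0.00296 with the block). Idi1 was at 308 and 327 CPM and then 216 and 242 CPM, and Cyp51 at 240.5 and 196 CPM and then 164 and 165 CPM. Insig1, the sterol sensor partner, and Acat2 had the most negative values named, both -0.56.

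ATF4 targets and serine synthesis genes respond to amino acid shortage and related stresses. Of 23 tested, 20 had positive fold changes (median log2 0.50). By edgeR none was called without the block, 13 had an unadjusted p under 0.05, and 16 rose with the replicate block. DESeq2 called 4 higher (Slc7a11, Psph, Chac1 and Pycr1). Phgdh, the first enzyme of serine synthesis, was at 165 and 117 CPM and then 203 and 144 CPM (log2 fold change 0.35 ± 0.21), and its groups overlapped. The cystine transporter Slc7a11 separated, at 11.8 and 12.02 CPM and then 21.5 and 19.6 CPM (log2 fold change 0.84 ± 0.09, adjusted p = 0.139). Atf4 itself was at 136 and 129 CPM and then 127 and 115 CPM. Chaperones of the endoplasmic reticulum had a median of 0.01 over 18 genes, with none called with or without the block.

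Genes of the regenerative and fetal-like programme, which injured or fetal intestinal epithelium expresses, had a median log2 fold change of 0.76 over 19 tested. Sprr1a was called, 14 rose and 2 fell (Hbegf and Ccn1) with the replicate block, and DESeq2 called 2 higher and 2 lower. Clu, Anxa1 and S100a6 differed more between experiments than with EIPA. Clu (clusterin) was at 3.203 and 39.9 CPM, then 9.51 and 75.3 CPM (log2 fold change 1.03 ± 1.28, adjusted p = 1.00, or 5.6e-07 with the block). Anxa1 was at 1.89 and 13.5 CPM and then 4.53 and 28.2 CPM, and S100a6 at 128 and 632 CPM and then 262 and 974.6 CPM. Ly6a (Sca-1) was at 3.51 and 7.01 CPM and then 12.5 and 24.6 CPM. Each was higher with EIPA within both experiments.

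No stem cell or cell cycle gene was called with EIPA. Members were selected on Lgr5 and 4 division genes, so genes that vary with these across cells may have been held near level. The part of that selection in these values was not tested. Over 28 crypt-base stem cell genes the median log2 fold change was 0.04, none was called, and 2 rose and 1 fell with the block. That median was 0.06 in cycling Lgr5-zero cells and -0.23 in low-cycling Lgr5-high cells, over the list genes tested there. Olfm4 was at 2150 and 2812 CPM and then 2288 and 2169 CPM. Ascl2 was at 43.0 and 47.6 CPM and then 57.1 and 57.1 CPM (log2 fold change 0.39 ± 0.10, adjusted p = 0.608), and Soat1 also rose with the block, while Smoc2, at 179 and 182 CPM and then 152 and 146 CPM, fell with it. A panel of WNT targets that the study examined in these libraries had a median of -0.10 over 15 genes, with Ascl2 higher and Klf5, Smoc2 and Jun lower with the block, and Jun alone lower by DESeq2. The S-phase list (42 genes) and the G2 and mitosis list (68 genes) had medians of -0.02 and -0.07. Of these, E2f2, Hmmr and Pimreg fell with the block. Hmgb2 was at 1451 and 1505 CPM and then 1363 and 1408 CPM, and Lgr5, described only, at 167 and 143 CPM and then 159 and 132 CPM.

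Of 17 p53 targets tested, 13 had positive fold changes (median log2 0.35), none was called, and 7 rose with the block. Cdkn1a, the CDK inhibitor p21, was at 58.1 and 61.4 CPM and then 78.1 and 70.8 CPM (log2 fold change 0.37 ± 0.09), and Bax at 202 and 209 CPM and then 239 and 254 CPM. Trp53, which encodes p53, was at 131 and 129 CPM and then 127 and 132 CPM. Ccnd1 was at 186 and 168 CPM and then 182 and 171 CPM, and the D cyclin list had a median of 0.03 over 16 genes.

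Among 29 pH regulators tested, the median was 0.09, with none called by edgeR without the block, 1 higher by DESeq2 (Slc26a6), and 4 higher and 2 lower with the block. Slc26a6, an apical anion exchanger, had the largest difference of those, at 5.06 and 5.34 CPM and then 12.1 and 9.86 CPM. Slc26a3 and the lactate transporter Slc16a1 fell with the block. Atp1b1, the sodium pump beta subunit, was at 514 and 473 CPM and then 539 and 499 CPM.

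The other lists gave medians of 0.14 (antioxidant and detoxification genes, 9 of 28 higher with the block, with Gsta1 at 136 and 158 CPM and then 343 and 298 CPM), 0.17 (23 histone genes, with Hist1h2ac lower with the block), 0.17 (15 interferon-linked genes, with Bst2 and H2-K1 higher and Ifi27l2b lower with the block), 0.03 (27 secretory fate and Notch genes) and 0.01 (16 glycolysis genes, with Gapdh higher and Aldoc lower with the block). Among the secretory fate genes, Hes1, the Notch effector, was at 202 and 152 CPM and then 184 and 163 CPM. Cbfa2t3 was the only member of that list called with the block, and it was higher. Without the block, edgeR called no member of these 5 lists, and DESeq2 called 5 antioxidant and detoxification genes higher (Gsta1, Gsta2, Gstm1, Gstm3 and Aldh1a1).

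The EIPA response was compared between dividing cells with and without Lgr5. List medians lay on the same side in members and cycling Lgr5-zero cells: enterocyte genes 0.84 and 0.96, regenerative genes 0.76 and 1.28, ATF4 targets 0.50 and 0.71. For immediate early genes they were -0.48 and -0.50, and for cholesterol genes -0.31 and -0.26. The difference between the 2 responses (interaction term, edgeR) passed the threshold for 39 of 13602 genes (0.287%), and in 36 of them the change was more negative in cycling Lgr5-high cells. Clu had a log2 fold change with EIPA of 1.03 in members and 2.02 in cycling Lgr5-zero cells (difference -1.01 ± 0.09, adjusted p = 0.000141). In cycling Lgr5-zero cells Clu stood at 3.99 and 40.9 CPM without EIPA and at 23.8 and 152 CPM with it. Anxa1 (difference -1.11), Tm4sf4 (-1.38), Ly6a (-0.75) and Msln (-1.44) followed the same pattern, as did Guca2b (-0.53), Apoc2 (-0.50) and Apoa1 (-0.35). Enteroendocrine Ghrl differed by -1.09, and Mptx1 by -2.96 at levels of 1.01 to 6.89 CPM in both classes. Tm4sf1 was at 0.0344 and 1.39 CPM, then 0.786 and 0.755 CPM, in members and at 0.0730 and 0.104 CPM, then 6.08 and 14.0 CPM, in Lgr5-zero cells. Jun was 1 of 3 genes with the opposite sign: its log2 fold change was -0.90 in members and -1.21 in Lgr5-zero cells (difference 0.32, adjusted p = 0.0163). Fos did not pass, with -1.53 and -1.56. Median depths were higher in members than in cycling Lgr5-zero cells (14258 to 21603 UMIs), and after thinning 27 genes passed, of which 9 were among the 39, with 12 more negative and 15 more positive. Without the +EIPA library of experiment 1, 241 genes passed.

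**Figure D4:**
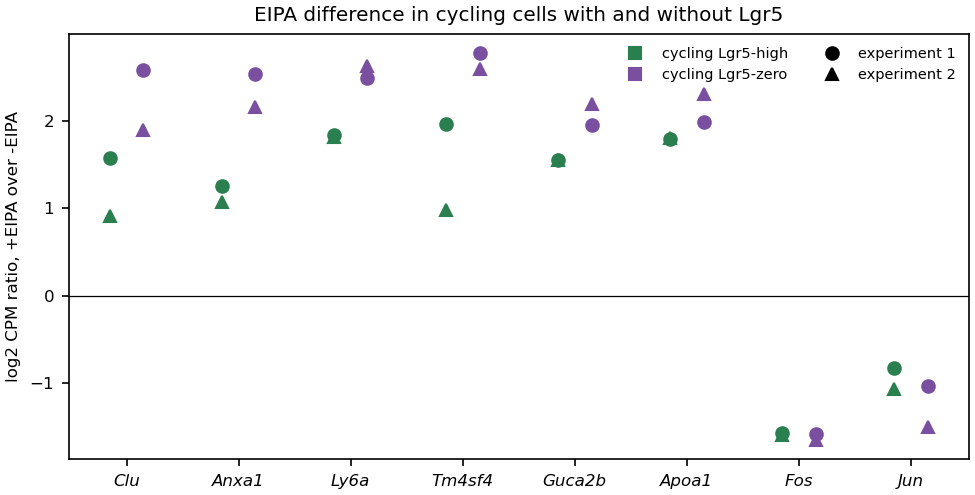
Log2 CPM ratio of +EIPA over -EIPA for 8 genes, in cycling Lgr5-high cells (green) and cycling Lgr5-zero cells (purple), with experiment 1 as circles and experiment 2 as triangles. Clu, Anxa1, Ly6a and Tm4sf4 lie lower in cycling Lgr5-high cells in both experiments, and Fos lies at nearly the same level in both classes.

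Against low-cycling Lgr5-high cells, the EIPA response differed for 13 of 12539 genes (0.104%), with 12 more negative in members. They included the enteroendocrine genes Chga, Chgb, Tac1, Sst and Scgn and the alpha-defensins Defa29 and Defa21, which have near-identical copies. Chgb, a granin of hormone granules, was at 44.2 and 159 CPM and then 1462 and 276 CPM in low-cycling cells, and at 98.6 and 112 CPM and then 328 and 57.3 CPM in members. Defa29 was at 18.5 and 8.00 CPM and then 81.5 and 204 CPM in low-cycling cells against at most 12.2 CPM in members. Enteroendocrine markers summed to 104 and 290 CPM, then 1882 and 409 CPM, in low-cycling cells and to 217 and 384 CPM, then 552 and 139 CPM, in members. The low-cycling class held only 163 to 363 cells in a WT library, and the part of its secretory cells in these differences was not tested. After thinning, 8 genes passed, of which 2 were among the 13, and without the -EIPA library of experiment 1, 198 passed. Olfm4 did not pass (difference 0.64, adjusted p = 0.0627), with -0.10 in members and -0.73 in low-cycling cells. List medians in low-cycling cells were 1.22 for enterocyte genes, 0.58 for regenerative genes and 0.30 for ATF4 targets. They were -0.38 for immediate early genes and -0.03 for cholesterol genes.

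With Dox, 1 library stood against 1, so differences are described by size without a test: at least 20 CPM in the higher library, a log2 ratio of at least 1 in either direction, and exact Poisson 95% intervals that did not overlap. Of 5746 genes at that level, 48 were past the fold higher (0.835%) and 16 lower (0.278%), and with cells thinned to 8000 UMIs 31 were higher and 19 lower. Among the higher were Ang4, a Paneth antimicrobial ribonuclease, at 58.2 CPM without Dox and 335 CPM with it (log2 ratio 2.53), Apoc2 at 7.85 and 44.2 CPM, Ccl6 at 10.0 and 42.6 CPM, Mmp7, the protease that activates defensins, at 51.0 and 208 CPM, Reg4 at 25.7 and 104.7 CPM, and Tm4sf4, Prxl2a, Apoa1, Defa17 and Apoc3, all between 1.96 and 2.02. The lower genes included Rbp7 at 36.1 and 6.74 CPM (log2 ratio -2.42), Dmbt1 (-2.02), Fosb (-1.86), Ccnb1ip1 (-1.69), Atf3 (-1.45), the oxygen sensor Egln3 (-1.41), the lactate exporter Slc16a3 (-1.41), the mitophagy receptor Bnip3 (-1.34), Fos (-1.33) and Scd1 (-1.28). Paneth markers moved with these genes: they summed to 4451 CPM without Dox and 14560 CPM with it in members, and to 6726 and 22460 CPM in all kept cells. Enterocyte markers stood at 2501 and 4312 CPM in members, and at 8667 and 18487 CPM in all kept cells. The part of free RNA or doublets in the members' values was not tested.

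The Dox pair shared no library with the EIPA comparison. Of the 48 genes past the fold higher with Dox, 45 were also called higher with EIPA under the replicate block (93.8% of the Dox list and 10.7% of the EIPA list), and of the 16 lower, 7 were called lower (43.8% and 3.45%). None was called in the opposite direction. Of all 5746 genes at 20 CPM or more in the Dox pair, 216 were called higher and 136 lower with EIPA under the replicate block. Among genes called higher with EIPA in that fit and at 20 CPM or more in the Dox pair, 179 of 216 had a higher value with Dox (82.9%), and of those called lower, 131 of 136 had a lower value (96.3%), where 30.9% and 69.1% of all 5746 genes did. Guca2b, for example, was at 58.3 CPM without Dox and 226 CPM with it. The genes higher in both comparisons included the enterocyte genes Apoa1 and Apoc3 and the Paneth genes Ang4, Mmp7 and Defa17. Enterocyte and Paneth marker sums were also higher in all kept cells, with Dox and, within both experiments, with EIPA. The part of free RNA or doublets in this overlap was not tested.

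By list, the Dox differences lay on the same side as those with EIPA for enterocyte genes (median log2 ratio 0.66 over 24 genes at 20 CPM or more), ATF4 targets (0.53 over 15), immediate early genes (-0.49 over 14, all lower) and cholesterol genes (-0.57 over 23, all lower), against -0.08 over all 5746 genes. Fos was at 396 CPM without Dox and 158 CPM with it, and Hmgcs1, which starts sterol synthesis, at 276 and 182 CPM. All 12 glycolysis genes at this level were lower with Dox (median log2 ratio -0.71), with Ldha at 1624.5 and 999 CPM and Pkm at 706 and 432 CPM, while with EIPA Ldha was at 1703 and 1235 CPM and then 1521 and 1311 CPM. Medians had opposite signs for antioxidant and detoxification genes (0.14 with EIPA and -0.20 with Dox) and chaperones of the endoplasmic reticulum (0.01 and -0.17). Of the antioxidant and detoxification genes 14 of 19 were lower with Dox, where 69.1% of all 5746 genes were. Histone genes (0.17 and -0.04) and pH regulators (0.09 and -0.03) were below 0 with Dox but above its median of -0.08 over all genes. Dox ratios were scaled by library size and EIPA fold changes by TMM, and with TMM that Dox median was -0.04. In the G2 and mitosis list 57 of 59 genes were lower (median -0.22), with Hmgb2 at 1546 and 1236 CPM, and in the S-phase list 33 of 36 (median -0.17). Members were deeper with Dox (median 26372 UMIs, against 17486 without), while the rule asks the same number of division UMIs of every cell. The part of depth in these lower values was not tested. Stem cell genes had a median of 0.07 over 19, with Olfm4 at 3109 and 3422 CPM, Ascl2 at 33.0 and 49.6 CPM, and Lgr5, described only, at 159 and 126 CPM.

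**Figure D5:**
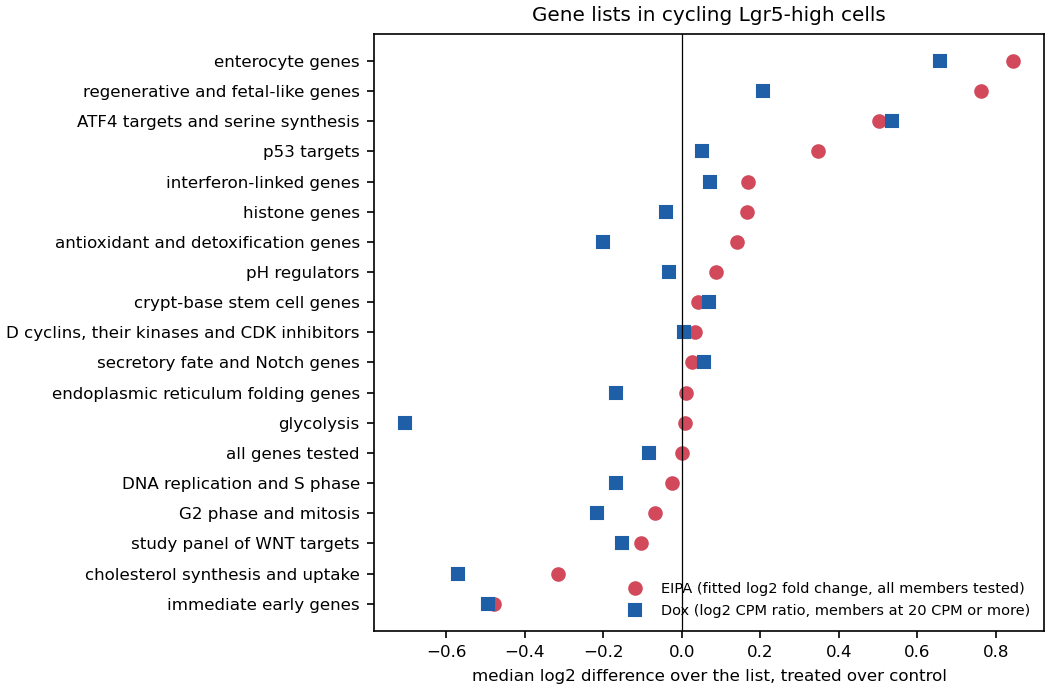
Median log2 difference over each gene list in cycling Lgr5-high cells, with EIPA (circles, fitted log2 fold change) and with Dox (squares, log2 CPM ratio of 1 library to 1). Enterocyte genes and ATF4 targets lie to the right for both and immediate early and cholesterol genes to the left for both, while glycolysis genes lie at 0.01 with EIPA and -0.71 with Dox.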

How the data were processed

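Single-cell 3′ RNA libraries (10x Genomics v3.1) of 6 organoid samples were used. The authors made the deposited UMI counts per gene and barcode with Cell Ranger 6.1.2 on mm10 (GRCm38), per the labels and the submitters' processing notes. Counts were raw, with no correction for depth or free RNA. Counts of members were summed per library. Replicate libraries differed beyond sampling noise and were kept apart. Without the block, the EIPA p-values measure the spread between libraries of a group. With the block, little spread between libraries is left to measure, and the p-values also rest on the spread estimated across genes. Those of the differences between responses measure the spread between libraries of the ratio of the 2 classes. EIPA was tested with edgeR 4.0.16 (quasi-likelihood test, TMM, filterByExpr, Benjamini-Hochberg threshold 0.05) over the 4 WT libraries, with DESeq2 1.42.0 as an alternative, and the scripts were tested on simulated data. WT libraries were paired by number, on the reading that they are experiments 1 and 2 of the study's source data, and their deviations from the group means correlated (Pearson r = 0.585 over 13072 genes, the same in both pairs by construction). Class ratios used CPM + 1. Intervals cover counting error only. Motifs were searched in RefSeq promoter windows of GRCm38.p6, without chromosome 18.

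The members, gene lists and tests were chosen with earlier results of these data known. Genes were named by rule: for EIPA, the 12 largest changes called in each direction, filled up to 12 by lowest p; for lists, the members called and the 3 most abundant; for differences between responses, the 6 of lowest p; with Dox, the 10 largest and 10 smallest ratios past the fold; for classes, the 12 largest and 12 smallest ratios at 50 or more CPM in the higher class. Rule genes, mitochondrial genes and unnamed gene models were left out, except in lists. Other genes in the class comparisons and in the differences between responses were chosen after their values were seen. Of the genes in the 18 lists, 3 without a unique symbol in the files were left out. Doublets were scored with Scrublet in scanpy 1.11.5. Its automatic threshold marked 0.0% of cells in 2 libraries, so the doublet alternative instead removed the 10% of cells with the highest score in each library. Some genes that these rules name are not reported here.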

Additional observations from a re-analysis of the deposited data

Results flagged for a closer look

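The change with EIPA differed between cycling Lgr5-high cells and another class for the genes below, by the interaction term in edgeR, with values given as log2 change in cycling Lgr5-high cells minus log2 change in the other class. Against cycling Lgr5-zero cells, the difference was -1.09 for Ghrl, -1.11 for Anxa1, -2.96 for Mptx1, -6.98 for Tm4sf1, -1.01 for Clu, -1.38 for Tm4sf4, -0.527 for Guca2b, -0.755 for Ly6a, -0.495 for Apoc2 and -0.346 for Apoa1, and it was 0.324 for Jun. Ghrl was higher with EIPA in experiment 1 and lower in experiment 2 in both classes. The value of Tm4sf1 is a fitted value, from counts near 0 in the -EIPA libraries of the cycling Lgr5-zero cells and under 2 CPM in every library of the cycling Lgr5-high cells, and is no bound. Against low-cycling Lgr5-high cells, it was -3.48 for Defa29, -1.86 for Ccl6, -4.06 for Mptx1, -2.60 for Chga, -2.34 for Chgb and -2.40 for Tac1.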

How the results depend on the processing

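Of 3 genes called with EIPA, the count became 100 with DESeq2, 223 with no filter on low counts, 622 with the replicate block, 1 with the highest doublet scores removed, 0 with 3 or more Lgr5 UMIs (552 at an unadjusted p under 0.05), 6 with cells thinned to 8000 UMIs (1 of the 3 among them) and 6 with a stricter cell filter, and it ranged from 2 to 21 when 1 library was left out (21 without the +EIPA library of experiment 1). The genes whose response differed from cycling Lgr5-zero cells numbered 39, then 15 with DESeq2, 251 with no filter, 27 with doublet scores removed (17 of them among the 39) and 56 to 241 with 1 library left out. Those that differed from low-cycling cells numbered 13, then 8 with DESeq2, 72 with no filter, 7 with doublet scores removed, 8 after thinning and 18 to 198 with 1 library left out. The causes were not tested. The rule genes, described without a test because they chose the cells, had fitted changes whose sign differed in places. With 1 library left out, the log2 fold change ranged from -0.148 to 0.0604 for Lgr5, from -0.274 to 0.226 for Mki67, from -0.0623 to 0.296 for Top2a and from -0.186 to 0.0165 for Birc5. After thinning, it was 0.0565 for Lgr5 and -0.0348 for Ube2c, and with library size in place of TMM it was -0.0167 for Ube2c. The 24 genes chosen for their change kept their sign in all 311 values. These values reuse the libraries in which the genes were chosen, so they are no independent support. The Dox count of 64 stayed between 50 and 65, but its split of 48 higher and 16 lower became 31 and 19 after thinning and 37 and 14 with doublet scores removed. The mean ratio of the share of kept cells lay between 0.902 and 1.03, and that of the share of cycling cells was 1.11. Precision was limited by 2 libraries a group and, with Dox, by 1.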
